A study of Mus musculus with 20 samples.

Results

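The genes described here encode the nuclear-encoded subunits of the mitochondrial respiratory chain (complexes I to IV) and of ATP synthase (complex V). They were taken by name alone from the array annotation: every probe-set with a single symbol starting with Ndufa, Ndufb, Ndufc, Ndufs or Ndufv and a digit, with Uqcr or Atp5, or with Cox and a digit from 4 to 8, together with Sdha, Sdhb, Sdhc and Sdhd. This gave 164 probe-sets for 81 of the 18194 genes with such a probe-set, out of 45101 probe-sets on the array, and 132 of them, for 70 genes, were among the 30960 probe-sets tested. Of the 32 untested probe-sets, 21 had a mean log2 level of 12.89 to 14.68. The other 11 had a mean below 3, close to the lowest value of the array (2.02). No untested probe-set had an SD over 0.098, short of the 0.1 required. Single mice could still differ, as at a bright probe-set of Sdha (1426688_at, 12.98 to 13.30). Through this filter 11 genes had no tested probe-set, namely the bright Ndufa13, Ndufa9, Ndufv3, Uqcrh, Cox4i1, Cox7a2, Atp5g3 and Atp5h and, at the lowest value, Ndufb4, Cox7b2 and Cox8c. Cox7b, which has no probe-set with a single symbol, was not analysed here.

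Gene expression was measured in full-thickness dorsal skin of female C57BL/6 mice, 6 weeks old at purchase and housed for 1 week, in 4 groups of 5 mice with 1 array per mouse. The saline, IMO-3100 and IMO-8400 groups all received IL-23, a cytokine that drives psoriasis-like skin inflammation, at 3 µg per day into the dorsal skin on days 1 to 4. IMO-3100, an oligonucleotide antagonist of TLR7 and TLR9, or IMO-8400, which also antagonizes TLR8, was given under the skin at a distant site at 15 mg/kg on days 4, 5 and 6, while the group labelled saline received the PBS vehicle, and injected skin was taken on day 7. Naïve mice were untreated, so that IL-23 and the injection itself cannot be told apart in the saline-to-naïve comparison. The sample labels name the antagonists, whereas the design text of the series speaks of 2 doses of a single antagonist, and the labels were followed.

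Complex I passes electrons from NADH, and complex II from succinate, to ubiquinone. Complex III hands them on to cytochrome c and complex IV to oxygen, and the proton gradient built up on the way drives ATP synthase. A few catalytic subunits are encoded by mitochondrial DNA, while the subunits described here are nuclear, and several complex IV subunits exist as a widely expressed form and a form restricted to muscle, testis or another tissue.

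The arrays had medians between 6.09 and 6.29, and keratinocyte and fibroblast markers were high in every mouse (mean log2 level 12.83 to 13.63 for 9 keratinocyte genes and 12.96 to 13.72 for 8 fibroblast genes). Naïve mice 1, 2 and 3 stood apart in genes of the hair shaft and growing follicle, with means of 13.19, 11.79 and 9.55 over 20 genes. Naïve mice 4 and 5 were at 4.43 and 3.31, and all other mice at 2.62 to 5.97. Counts are therefore also given without naïve mice 1 and 2, the highest, while naïve mouse 3 was kept in them. In whole skin, fewer cells of a type and less RNA per cell cannot be told apart.

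Promoters of 4 genes that rose with IL-23 and fell with both antagonists are shown, beside those of 2 muscle forms, because the widely expressed genes held some activator motifs more often than promoters in general. The 4 are those of the 14 such genes with a window that held ETS, NRF1, YY1 or ERR letters before the start. The stretches are 100 bases from RefSeq promoter windows (GRCm38.p6) lying within 250 bases before the annotated start of transcription, written 5′ to 3′ on the strand of the gene. Capitals mark matches, on either strand, to the motifs searched: ETS (CCGGAAG), NRF1 (GCGCANGCG), YY1 (AAGATGGCG), ERR (TCAAGGTCA) and the E-box (CAGCTG). NRF1 matches on opposite strands overlap in Atp5k and Cox6a1.
Atp5k: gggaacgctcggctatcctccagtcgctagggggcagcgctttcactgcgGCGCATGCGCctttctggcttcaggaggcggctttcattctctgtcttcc
Atp5l: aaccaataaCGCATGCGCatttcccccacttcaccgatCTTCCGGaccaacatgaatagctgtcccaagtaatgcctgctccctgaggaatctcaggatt
Cox6a1: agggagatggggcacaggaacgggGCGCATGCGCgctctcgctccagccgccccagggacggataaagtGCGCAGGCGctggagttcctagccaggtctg
Uqcr11: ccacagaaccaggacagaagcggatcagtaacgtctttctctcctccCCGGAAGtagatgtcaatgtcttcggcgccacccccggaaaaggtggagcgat
Cox7a1: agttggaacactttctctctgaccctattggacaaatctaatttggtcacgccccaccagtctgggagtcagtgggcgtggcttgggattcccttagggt
Cox8b: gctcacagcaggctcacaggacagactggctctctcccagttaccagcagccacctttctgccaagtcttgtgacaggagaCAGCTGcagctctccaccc

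The first 4 genes, whose stretches carry NRF1 or ETS letters, rose with IL-23 and fell with both antagonists at their brightest tested probe-set, and the last 2 encode muscle forms of complex IV subunits. The stretches lie on the minus strand at chr5:108434400-108434499 (Atp5k), chr9:44920893-44920992 (Atp5l), chr5:115349045-115349144 (Cox6a1), chr10:80406835-80406934 (Uqcr11) and chr7:140900447-140900546 (Cox8b), and on the plus strand at chr7:30184071-30184170 (Cox7a1). RefSeq windows of 300 bases, 250 before and 50 after the start, were matched for 66 of the 81 genes (71 windows).

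Among the 67 windows of widely expressed genes, NRF1 letters were in 19 (28.4%), against 6.25% of all 32851 promoter windows. ETS letters were in 17 (25.4%, against 8.86%), YY1 letters in 6 (8.96%, against 1.40%) and ERR letters in 2 (2.99%, against 0.423%). The E-box was in 5 (7.46%, against 16.3%). Of the 4 windows of the restricted isoforms, 1 held the E-box and none held ETS, NRF1, YY1 or ERR letters. NRF1, the ETS factor GABP and ERR are known activators of nuclear genes for mitochondrial proteins, and a match to their letters is a description of the sequence only. At least 1 of ETS, NRF1, YY1 and ERR was in 35 of the 67 windows (52.2%, against 15.2% of all windows), and the remaining windows held none. Of the 15 genes that rose with IL-23 and fell with both antagonists, 14 had a window and 8 of these held such letters (57.1%), near the share of all widely expressed members. Before the start it was 4 of 14 (28.6%), against 32.8% of the 67 windows and 12.1% of all windows.

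IL-23-injected skin of saline mice had a small but broad increase of respiratory chain transcripts over naïve skin. A probe-set is said to have risen or fallen when its false-discovery rate (FDR, limma with Benjamini-Hochberg adjustment over all tested probe-sets) was under 0.05, and is called a differentially expressed gene (DEG) when the fold-change (FCH) was also over 2. Of 132 tested probe-sets, 54 rose (40.9%, 32 genes) and 7 fell (5.30%, 6 genes), whereas over all tested probe-sets 20.7% rose and 24.0% fell. The median log2 change was 0.17 for the members and −0.04 over all probe-sets. Only 2 probe-sets were DEGs upward (7.58% of all probe-sets) and 1 downward (8.92%).

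Because most members are bright, the same counts were made for probe-sets with a mean log2 level of at least 12. Among these 90 members, 36 rose (40.0%) and 1 fell (1.11%), against 25.2% and 20.9% of all 3144 probe-sets as bright, and the median change was 0.17 against 0.02. In fits that held the mean of a marker list constant, 6 members rose when the list was white adipocyte genes and 29 when it was genes of proliferating cells. The white adipocyte mean did not overlap between naïve and saline mice, so that fit could not separate the list from the group. Without naïve mice 1 and 2, 52 members rose and 7 fell at the FDR. The count of 7 was 3 without saline mouse 2 and 4 without naïve mouse 2. The 2 upward DEGs were 1 without any of saline mouse 2, saline mouse 3, naïve mouse 2 or naïve mouse 3, and the 1 downward DEG became 3 without naïve mouse 1 and 2 without saline mouse 4, saline mouse 5 or naïve mouse 4.

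More of these transcripts were lower than higher with each antagonist in IL-23-injected skin. With IMO-3100, 58 of 132 probe-sets fell (43.9%, 39 genes), against 14.4% of all probe-sets, and 3 rose, all of them for Cox7a2l, against 12.4%. With IMO-8400, 52 fell (39.4%, 32 genes), against 13.2%, and 3 rose, 2 for Cox7a2l and 1 for Cox6b2, against 14.7%. The medians were −0.22 and −0.20, each against 0.01 over all probe-sets. All 15 tested genes of proliferating cells also fell with each antagonist. With their mean held constant, 4 members fell with IMO-3100 and 4 with IMO-8400 (medians −0.25 and −0.23). With the mean of white adipocyte genes held constant, 8 members fell with IMO-8400. Neither list mean overlapped between the saline mice and the mice of the antagonist concerned. These fits therefore could not separate a list from the group, and no conclusion is drawn from their counts. No member was a DEG in either comparison, where 2.69% of all probe-sets were DEGs upward and 3.73% downward with IMO-3100, and 4.46% and 3.59% with IMO-8400.

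Among the 90 bright members, 47 fell with IMO-3100 (52.2%) and 3 rose, against 14.8% and 16.3% of all probe-sets as bright. With IMO-8400, 37 of them fell (41.1%) and 2 rose, against 15.7% and 15.3%. In all, 34 probe-sets fell with both antagonists, 24 with IMO-3100 alone and 18 with IMO-8400 alone. In 29 there was a rise in saline over naïve skin and a fall with both. Shares of these patterns over all probe-sets were not counted. The comparisons share the saline mice, so that a saline group which happened to lie high would by itself give a rise followed by a fall. Without naïve mice 1 and 2, 69 members fell with IMO-3100 and 64 with IMO-8400. The 3 that rose with IMO-3100 were 1 without IMO-3100 mouse 3 or saline mouse 3 and 6 without naïve mouse 1. The 3 that rose with IMO-8400 were 1 without IMO-8400 mouse 4 or saline mouse 2, 5 without naïve mouse 3 and 8 without naïve mouse 1.

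**Figure D1:**
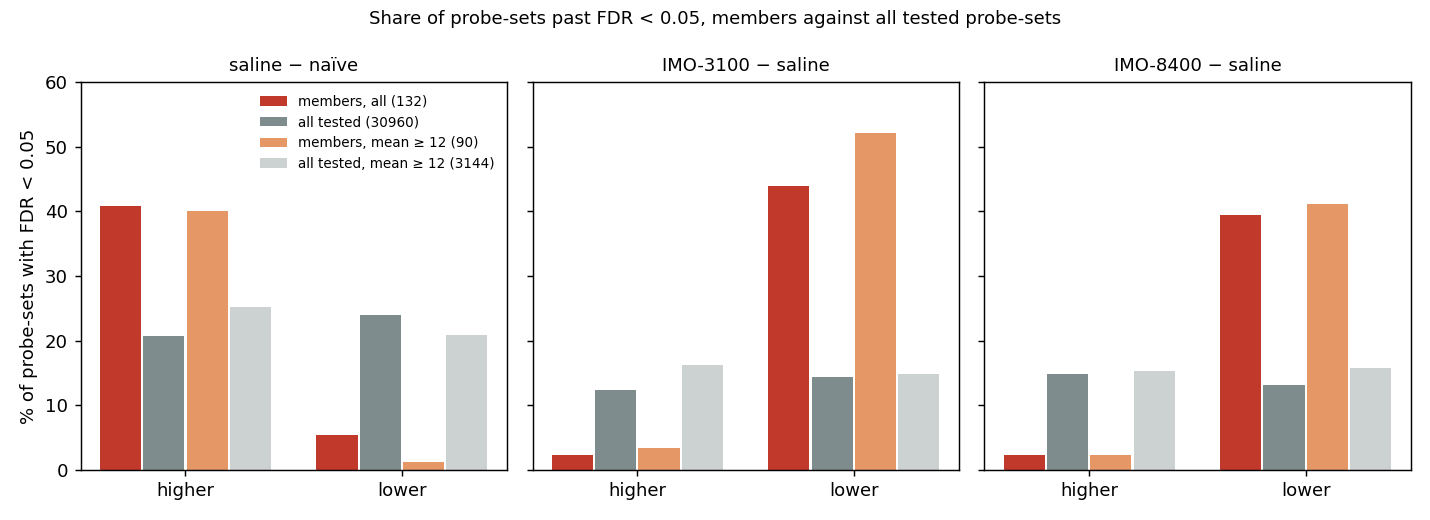
Share of probe-sets that rose or fell at an FDR under 0.05 (y axis, percent) in each comparison, for the tested respiratory chain and ATP synthase probe-sets and for all tested probe-sets, each in full and for a mean level of at least 12. The members rose in 40.9% of cases in saline against naïve skin and fell in 43.9% and 39.4% with the antagonists, each share above that of all probe-sets.

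The increase and its loss were seen in the mean of the 64 widely expressed genes, each at its brightest tested probe-set. This mean was 12.88, 12.93, 12.96, 12.82 and 12.91 in naïve mice 1 to 5 and 13.12, 12.99, 13.06, 13.11 and 13.07 in saline mice 1 to 5. It was 12.93, 12.92, 12.82, 12.72 and 12.87 with IMO-3100 and 12.85, 12.81, 12.92, 12.94 and 12.87 with IMO-8400. Every saline mouse lay above every mouse of the other 3 groups, although the group means were close on the log2 scale (12.90 ± 0.053 naïve, 13.07 ± 0.050 saline, 12.85 ± 0.085 IMO-3100 and 12.88 ± 0.054 IMO-8400, SD, n = 5).

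**Figure D2:**
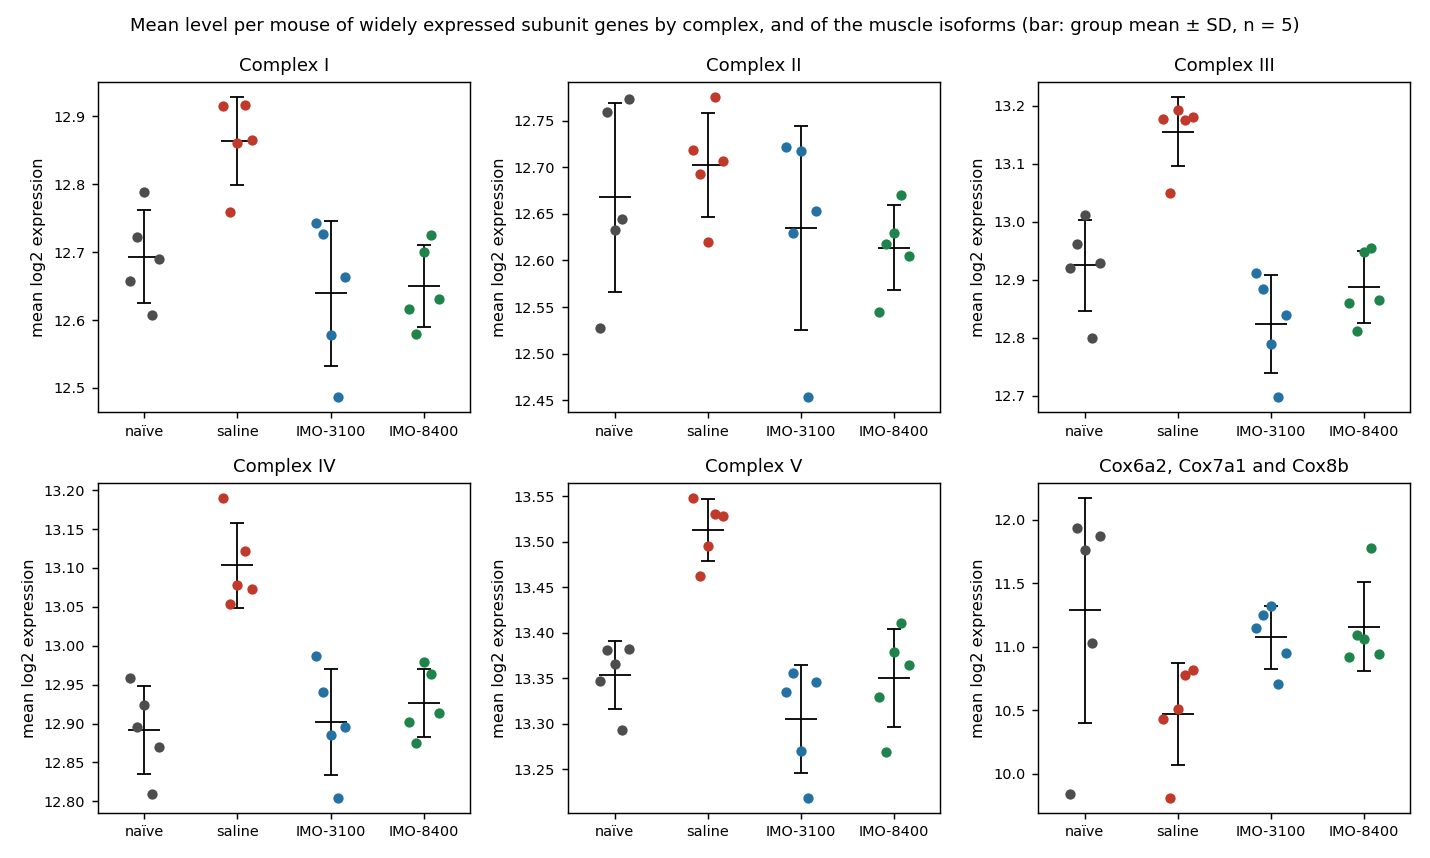
Mean log2 level of the widely expressed genes of each complex at their brightest tested probe-set (y axis) and, in the last panel, of the muscle forms Cox6a2, Cox7a1 and Cox8b, in each mouse (points) of the 4 groups, with the group mean and SD. The saline mice lie above all other mice for complexes III, IV and V, overlap the naïve mice for complex I, and overlap all groups for complex II.

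Complex I, the NADH dehydrogenase, had 29 tested genes. Of its 63 tested probe-sets, 27 rose and 1 fell in saline over naïve skin, 28 fell with IMO-3100 and 27 with IMO-8400. The mean of the 29 genes was 12.69 ± 0.068 in naïve, 12.86 ± 0.064 in saline, 12.64 ± 0.11 in IMO-3100 and 12.65 ± 0.060 in IMO-8400 skin. The lowest saline mouse (12.76) was below the highest naïve mouse (12.79) and above every antagonist-treated mouse (at most 12.74).

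Ndufs8, a core subunit that carries iron-sulfur clusters, had values of 13.30, 13.16, 13.34, 13.01 and 13.06 in naïve mice and 13.55, 13.47, 13.53, 13.57 and 13.50 in saline mice. With IMO-3100 it was 13.29, 13.18, 12.92, 12.92 and 13.14, and with IMO-8400 13.09, 12.92, 13.23, 13.18 and 13.17. The saline mice were above every other mouse. Ndufs8 rose by 0.35 on the log2 scale (SE 0.091, FDR = 0.005) and changed by −0.43 (FDR = 0.0024) with IMO-3100 and −0.41 (FDR = 0.0033) with IMO-8400.

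Ndufs4, an accessory subunit needed for a stable complex I, was 12.60, 12.55, 12.72, 12.51 and 12.60 in naïve mice and 13.35, 12.96, 12.92, 12.83 and 12.81 in saline mice. With IMO-3100 it was 12.72, 12.71, 12.35, 12.38 and 12.48, and with IMO-8400 12.34, 12.43, 12.63, 12.62 and 12.57. Saline mouse 1 was the highest, and the other 4 saline mice were still above all mice of the other groups. Ndufs4 rose by 0.38 (SE 0.11, FDR = 0.0088) and changed by −0.44 (FDR = 0.0061) with IMO-3100 and −0.46 (FDR = 0.0046) with IMO-8400.

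Ndufb1, an accessory subunit of the membrane arm with only a dim probe-set, was 1 of the 2 upward DEGs. Its values were 4.10, 4.02, 3.98, 4.12 and 4.12 in naïve mice and 4.87, 5.19, 5.59, 4.82 and 4.89 in saline mice. They were 4.57, 4.74, 4.29, 4.37 and 4.26 with IMO-3100 and 4.04, 3.95, 4.26, 4.24 and 4.11 with IMO-8400. The saline mice did not overlap any other group, and the IMO-8400 mice lay around the naïve mice. Ndufb1 rose 2.01-fold (log2 change 1.00, SE 0.13, FDR = 1.2e-05), and IMO-3100 lowered it to 0.648 (FDR = 0.0025) and IMO-8400 to 0.516 (FDR = 9.5e-05) of the saline level.

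The other upward DEG was a dim probe-set of Ndufa3 (1430149_at), with values of 6.79, 5.03, 5.04, 5.14 and 5.68 in naïve mice and 7.51, 7.46, 7.66, 7.24 and 7.47 in saline mice. It was 6.65, 7.70, 6.51, 6.28 and 6.89 with IMO-3100 and 6.33, 6.84, 6.75, 5.95 and 6.50 with IMO-8400. Naïve mouse 1 was above the other naïve mice, and IMO-3100 mouse 2 was above all saline mice. The probe-set rose 3.82-fold (log2 change 1.93, SE 0.30, FDR = 6.7e-05) and fell with IMO-8400 by 1.00 (FDR = 0.02, or 0.057 without IMO-8400 mouse 4), while its change with IMO-3100 was −0.66 (FDR = 0.11). The 2 bright probe-sets of Ndufa3 changed by 0.0038 and −0.032 in saline skin, so the probe-sets of this gene disagreed. Ndufb2 disagreed as well, with its brightest probe-set at 0.20 (FDR = 0.042, lost without any of 7 mice) and the dim 1442658_at at −0.84 (FDR = 0.00044).

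Of the core subunits, Ndufv2 rose by 0.28 (FDR = 0.022) and changed by −0.29 (FDR = 0.032) with IMO-3100 and −0.37 (FDR = 0.0074) with IMO-8400. Ndufv1, which binds NADH and the flavin, did not pass in saline skin (0.15, FDR = 0.28) and fell with IMO-3100, where its values of 12.77, 12.82, 12.51, 12.50 and 12.63 were all below the saline values of 12.85, 13.02, 13.20, 13.40 and 13.34. With IMO-8400 its values of 13.08, 13.04, 13.04, 12.98 and 13.00 were inside the saline range. The changes of Ndufv1 were −0.52 (SE 0.11, FDR = 0.0025) with IMO-3100 and −0.13 (FDR = 0.38) with IMO-8400. Ndufs1, Ndufs3 and Ndufs7 also fell with IMO-3100, by 0.23 (FDR = 0.043), 0.23 (FDR = 0.02) and 0.31 (FDR = 0.027), and were at −0.13, −0.11 and −0.05 with IMO-8400 without passing. Leaving out a single mouse ended the IMO-3100 call of Ndufs1 for 8 mice, of Ndufs7 for 5, of Ndufv2 for 4 and of Ndufs3 for 1.

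Complex II, succinate dehydrogenase, showed no common direction in saline skin. Of its 7 probe-sets, 1 rose and 2 fell in saline skin and 2 fell with each antagonist. The mean of its 4 genes was 12.67 ± 0.10 in naïve, 12.70 ± 0.056 in saline, 12.64 ± 0.11 in IMO-3100 and 12.61 ± 0.046 in IMO-8400 skin, and all groups overlapped. Sdha, the flavoprotein subunit, was 12.91, 13.35, 13.15, 13.19 and 13.32 in naïve mice and 12.87, 12.93, 12.81, 13.07 and 12.98 in saline mice. The groups overlapped only through naïve mouse 1. Sdha fell by 0.25 (SE 0.098, FDR = 0.042), a call that was lost (FDR = 0.053 to 0.11) without any of 8 of the 10 mice. These values are from its brightest tested probe-set. A brighter probe-set of Sdha (1426688_at) was untested and did not show this fall, at 13.14 to 13.30 in naïve and 13.10 to 13.30 in saline mice. Sdhb, the iron-sulfur subunit, was at 0.17 (FDR = 0.12) in saline skin, and neither antagonist changed it past the threshold (−0.18 and −0.21).

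The membrane anchor Sdhd differed between its probe-sets. At its brightest probe-set it was at 0.18 (FDR = 0.079) in saline skin and at −0.24 (FDR = 0.04, lost without any of 8 mice) with IMO-8400. At 1428235_at it was 11.52, 11.85, 11.97, 11.89 and 12.13 in naïve mice and 12.58, 12.58, 12.54, 12.54 and 12.41 in saline mice. The antagonist-treated mice were at 12.38, 12.07, 12.16, 11.96 and 12.14 (IMO-3100) and 12.02, 11.85, 12.15, 12.09 and 12.09 (IMO-8400), all below the saline mice. This probe-set rose by 0.66 (FDR = 8.15e-05) and changed by −0.39 (FDR = 0.011) with IMO-3100 and −0.49 (FDR = 0.0025) with IMO-8400. Sdhc, the other anchor, was at 0.04 in saline skin and fell by 0.25 (FDR = 0.037, lost without any of 5 mice) with IMO-3100.

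Complex III, which passes electrons to cytochrome c, had the largest median changes of the 5 complexes in each of the comparisons with naïve and saline skin (0.29 in saline, −0.43 with IMO-3100 and −0.30 with IMO-8400 over 11 probe-sets). Of these, 7 rose in saline skin and none fell, 9 fell with IMO-3100 and 8 with IMO-8400. The bright Uqcrb (1455997_a_at) went the other way in saline skin (−0.21) and with IMO-3100 (0.14). With IMO-8400 it was at −0.10, and none of these changes of Uqcrb passed. The mean of its 7 genes was 12.92 ± 0.078 in naïve, 13.15 ± 0.059 in saline, 12.82 ± 0.085 in IMO-3100 and 12.89 ± 0.062 in IMO-8400 skin. Every saline mouse was at 13.05 or more and every other mouse at 13.01 or less.

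Uqcrq, a small subunit of complex III, was 12.28, 12.12, 12.32, 12.04 and 12.19 in naïve mice and 12.73, 12.62, 12.73, 12.69 and 12.88 in saline mice. It was 12.13, 12.23, 12.06, 11.90 and 12.01 with IMO-3100 and 12.32, 12.22, 12.35, 12.18 and 12.25 with IMO-8400. The saline mice lay well apart from all others, and the IMO-8400 mice were level with the naïve mice. Uqcrq rose 1.46-fold (log2 change 0.54, SE 0.080, 95% interval 0.37 to 0.71, FDR = 4.0e-05). IMO-3100 lowered it to 0.632 (FDR = 3.7e-05) and IMO-8400 to 0.724 (FDR = 0.00052) of the saline level. These calls held without any single mouse of the groups compared.

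Uqcr10 and Uqcr11, other small subunits, were also highest in the saline mice. Uqcr10 was 12.65, 12.61, 12.62, 12.43 and 12.60 in naïve mice and 13.06, 12.84, 13.02, 12.93 and 12.97 in saline mice. With IMO-3100 it was 12.69, 12.64, 12.45, 12.44 and 12.44, and with IMO-8400 12.62, 12.46, 12.70, 12.62 and 12.48. Saline mice were again above all others, with a rise of 0.38 (FDR = 0.0009) and changes of −0.43 (FDR = 0.001) and −0.39 (FDR = 0.0019) with IMO-3100 and IMO-8400. Uqcr11, whose promoter with ETS letters is shown above, rose by 0.29 (FDR = 0.0054), from at most 12.48 in naïve mice to at least 12.54 in saline mice, and changed by −0.42 (FDR = 0.00096) and −0.29 (FDR = 0.0096).

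Of the larger subunits, the Rieske iron-sulfur protein Uqcrfs1 rose by 0.24 (FDR = 0.036, lost without any of 5 mice) and fell with IMO-3100 by 0.27 (FDR = 0.031, lost without any of 6 mice). The core protein Uqcrc1 was at 0.24 (FDR = 0.052) in saline skin and fell with IMO-3100 by 0.52 (FDR = 0.0011), with all IMO-3100 mice (11.89 to 12.16) below all saline mice (12.28 to 12.70). With IMO-8400 it was at −0.21 (FDR = 0.11) and inside the saline range. Uqcrc2, the other core protein, fell with IMO-8400 by 0.21 (FDR = 0.034, lost without any of 7 mice) and was at −0.15 (FDR = 0.13) with IMO-3100 at its brightest probe-set, while the dimmer 1428631_a_at fell with both, by 0.26 (FDR = 0.0265) with IMO-3100 and 0.30 (FDR = 0.0123) with IMO-8400.

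Complex IV, cytochrome c oxidase, was split between its widely expressed and its tissue-restricted subunits. Of 27 probe-sets, 10 rose and 2 fell in saline skin, 8 fell and 3 rose with IMO-3100, and 8 fell and 3 rose with IMO-8400. The mean of 9 widely expressed genes was 12.89 ± 0.057 in naïve, 13.10 ± 0.055 in saline, 12.90 ± 0.068 in IMO-3100 and 12.93 ± 0.044 in IMO-8400 skin. All saline mice were at 13.05 or more and all others at 12.99 or less. The 2 that fell in saline skin, Cox6b2 and Cox7a1, are both restricted forms.

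Cox8a, the widely expressed form of the smallest subunit, was 11.98, 11.61, 11.94, 11.60 and 11.55 in naïve mice and 12.42, 12.35, 12.36, 12.41 and 12.33 in saline mice. It was 12.04, 12.04, 11.83, 11.64 and 11.80 with IMO-3100 and 12.10, 11.97, 12.09, 11.98 and 11.95 with IMO-8400. The saline mice were within a narrow band above every other mouse. Cox8a rose by 0.64 (SE 0.097, FDR = 5.4e-05) and changed by −0.50 (FDR = 0.0014) and −0.36 (FDR = 0.011), and its second probe-set (1416112_at) gave 0.70, −0.68 and −0.48.

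Cox6a1, the widely expressed form of subunit 6a, was 13.03, 12.69, 12.89, 12.82 and 12.65 in naïve mice and 13.10, 13.06, 13.16, 13.33 and 13.23 in saline mice. With IMO-3100 it was 12.73, 12.77, 12.63, 12.54 and 12.75, and with IMO-8400 12.97, 12.80, 12.85, 12.67 and 12.83. Naïve mouse 1 came close to the saline mice, which were otherwise clear of all groups. Cox6a1 rose by 0.36 (FDR = 0.0028) and changed by −0.49 (FDR = 0.00074) and −0.35 (FDR = 0.0062). These values are from 1417418_s_at. The brighter probe-set of Cox6a1 (1417417_a_at) was untested, since its SD over all mice was not over 0.1. Cox6b1 rose by 0.19 (FDR = 0.02) and fell with IMO-3100 by 0.22 (FDR = 0.016). Cox5b rose by 0.20 (FDR = 0.02) and fell with IMO-3100 by 0.32 (FDR = 0.002) and with IMO-8400 by 0.19 (FDR = 0.038, lost without any of 9 mice). Cox7c passed only with IMO-8400 (−0.43, FDR = 0.035, lost without any of 5 mice).

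The muscle forms Cox6a2, Cox7a1 and Cox8b took another course. Their mean was 9.84, 11.93, 11.76, 11.03 and 11.87 in naïve mice and 10.43, 9.81, 10.51, 10.78 and 10.82 in saline mice. It was 11.15, 11.25, 11.32, 10.71 and 10.95 with IMO-3100 and 10.92, 11.09, 11.06, 11.77 and 10.94 with IMO-8400. Naïve mouse 1 was as low as the saline mice while the other 4 naïve mice were above them, and IMO-8400 mouse 4 was the highest of the antagonist-treated mice.

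Cox7a1 was 8.72, 10.91, 10.43, 9.68 and 10.80 in naïve mice and 9.14, 8.43, 9.24, 9.44 and 9.50 in saline mice. It fell to 0.515 of the naïve level (log2 change −0.96, SE 0.33, 95% interval −1.66 to −0.26, FDR = 0.026), a call lost (FDR = 0.058 to 0.083) without saline mouse 2 or naïve mouse 2, 3 or 5. Cox6a2 was at −0.65 (FDR = 0.056) and Cox8b at −0.84 (FDR = 0.072), both short of the threshold. Without naïve mouse 1 they were at −0.95 (FDR = 0.0008) and −1.28 (FDR = 0.00052).

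With the antagonists no muscle form passed over all 20 mice. The changes of Cox6a2, Cox7a1 and Cox8b were 0.50, 0.65 and 0.66 with IMO-3100 (FDR = 0.18, 0.16 and 0.20) and 0.66, 0.65 and 0.75 with IMO-8400 (FDR = 0.071, 0.16 and 0.14). All IMO-8400 mice were nevertheless above all saline mice for Cox6a2 (12.46 to 13.14 against 11.57 to 12.35) and Cox8b (10.68 to 11.68 against 9.43 to 10.65). Without naïve mice 1 and 2, whose values enter these comparisons only through the shared spread, the same changes passed, at FDR = 0.0491, 0.0499 and 0.0472 for Cox6a2, Cox7a1 and Cox8b with IMO-3100 and 0.0115, 0.0497 and 0.0249 with IMO-8400.

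Mouse skin includes a thin sheet of skeletal muscle, and the medians of muscle genes moved beside these isoforms. Of 24 tested skeletal muscle genes, 16 fell and 3 rose (the slow-fibre troponins Tnnt1, Tnni1 and Tnnc1) in saline skin, 4 rose and 1 fell with IMO-3100, and 13 rose and none fell with IMO-8400, with medians of −0.43, 0.39 and 0.75. Of all probe-sets, 20.7% rose and 24.0% fell in saline skin, 12.4% and 14.4% with IMO-3100, and 14.7% and 13.2% with IMO-8400. The mean of the muscle list was level in naïve, saline and IMO-3100 skin (12.04 ± 0.42, 12.01 ± 0.14 and 12.13 ± 0.27, SD). It was higher in IMO-8400 skin (12.77 ± 0.23). Naïve mouse 1 had the lowest mean of the muscle list of all 20 mice (11.36). White adipocyte genes moved as well, with 8 of 10 lower in saline skin, 5 higher with IMO-3100 and 7 higher with IMO-8400. The brown fat marker Ucp1 was near background. With the mean of the white adipocyte genes held constant, Cox7a1 in saline skin changed upward rather than downward, short of the threshold. The part of muscle or fat content in the change of the isoforms was not tested beyond fits that held a list mean constant.

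**Figure D3:**
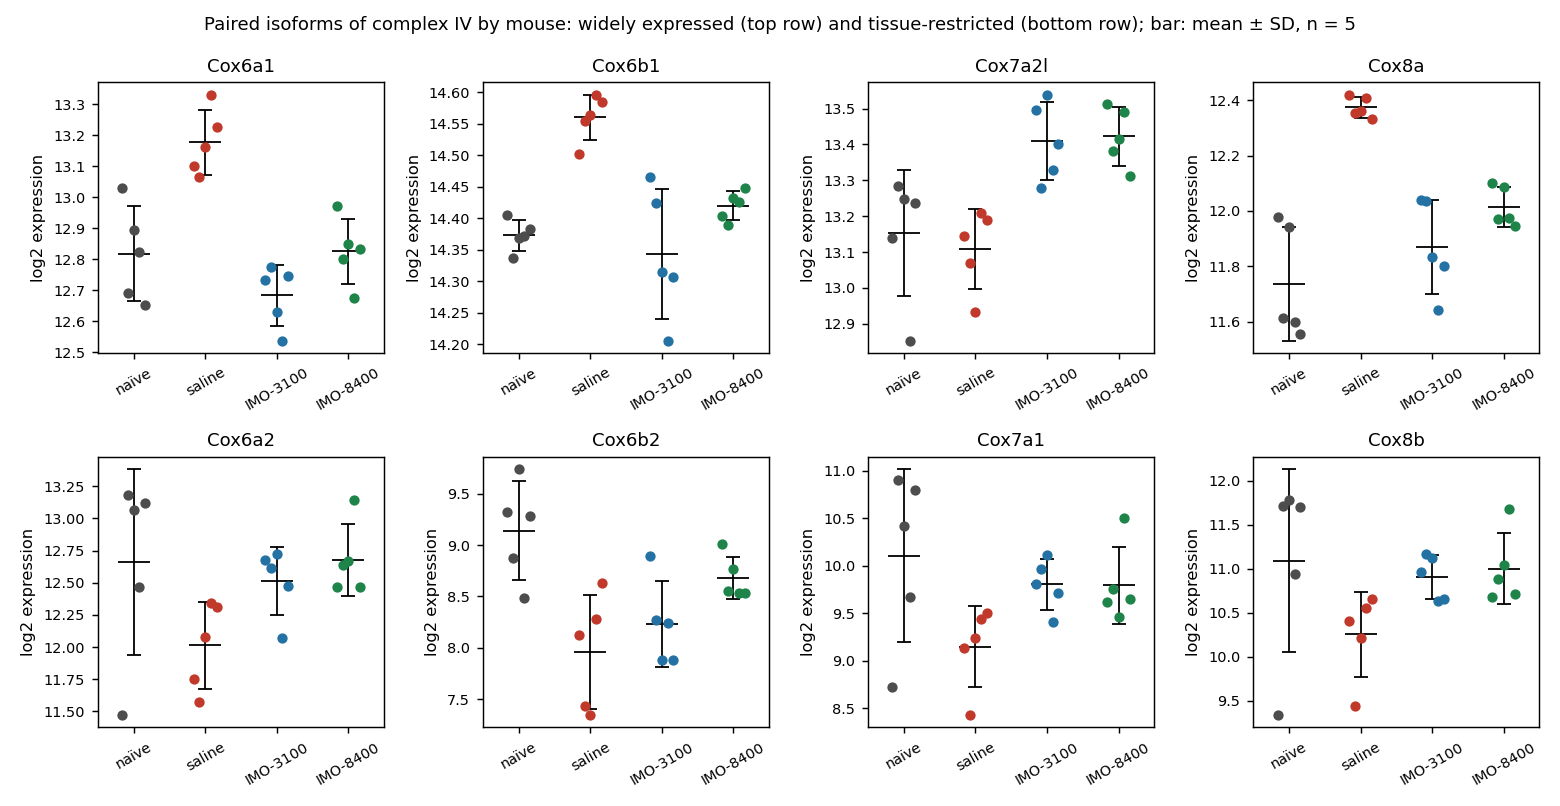
Log2 level (y axis) of widely expressed complex IV subunits and of their muscle or other restricted counterparts in each mouse (points), with group means and SD, in the 4 groups. At the brightest tested probe-sets, which are shown, Cox8a and Cox6a1 are highest in the saline mice. In contrast, Cox8b, Cox6a2 and Cox7a1 are lower in saline than in most naïve mice, naïve mouse 1 excepted.

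Cox6b2, the form of subunit 6b known from testis, was the downward DEG. It was 9.32, 8.87, 9.74, 8.48 and 9.28 in naïve mice and 8.12, 7.43, 7.35, 8.28 and 8.63 in saline mice, with an overlap through naïve mouse 4 and saline mouse 5. It fell to 0.442 of the naïve level (log2 change −1.18, SE 0.26, 95% interval −1.73 to −0.63, FDR = 0.0015). With IMO-3100 it was 8.90, 8.27, 7.88, 8.25 and 7.88 (change 0.27, FDR = 0.48), and with IMO-8400 it rose to 9.01, 8.55, 8.77, 8.54 and 8.53 (change 0.72, 95% interval 0.17 to 1.26, FDR = 0.048). The IMO-8400 call was lost (FDR = 0.058 to 0.14) without any IMO-8400 mouse or saline mouse 1, 2 or 3, with no filter (FDR = 0.084) and with quantile normalization (FDR = 0.055). Cox4i2, a form known from lung, stayed near background (mean 3.24).

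Cox7a2l was counted here with complex IV by its name, and any role in joining complexes III and IV was not tested in these mice. It was the exception among the bright genes. It was 13.14, 13.29, 13.25, 12.85 and 13.24 in naïve mice and 13.14, 13.07, 12.93, 13.21 and 13.19 in saline mice. With IMO-3100 it was 13.50, 13.28, 13.54, 13.33 and 13.40, and with IMO-8400 13.51, 13.38, 13.41, 13.49 and 13.31, all above the saline mice. Saline and naïve skin were alike in range (−0.04, FDR = 0.71), and Cox7a2l rose by 0.30 (95% interval 0.11 to 0.49, FDR = 0.02) with IMO-3100 and 0.31 (0.12 to 0.50, FDR = 0.015) with IMO-8400. Its other 2 probe-sets gave 0.30 and 0.30 with IMO-3100 and 0.29 and 0.28 (the last at FDR = 0.057) with IMO-8400. The IMO-3100 call was lost without IMO-3100 mouse 3 (FDR = 0.058) or saline mouse 3 (FDR = 0.061).

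Ndufa4, once placed in complex I and now counted with complex IV, rose by 0.32 (FDR = 0.0092) and did not pass with the antagonists (−0.20 and −0.12). Its paralogue Ndufa4l2, a gene known to be induced by hypoxia, was 10.60, 10.81, 11.72, 10.67 and 10.37 in naïve mice and 10.15, 10.45, 10.15, 10.21 and 10.85 in saline mice. It was 9.88, 10.50, 11.03, 9.59 and 9.77 with IMO-3100 and 11.49, 11.18, 11.27, 11.63 and 10.29 with IMO-8400. The groups overlapped in every comparison, and no change passed (−0.47 in saline skin, −0.21 with IMO-3100 and 0.81 with IMO-8400, FDR = 0.20, 0.66 and 0.050). The change of Ndufa4l2 with IMO-8400 passed without IMO-8400 mouse 5, the lowest of its group (1.03, FDR = 0.0137), or without saline mouse 5 (0.93, FDR = 0.0367).

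Complex V, ATP synthase, had 15 tested genes, 6 of which rose in saline skin at their brightest probe-set, by at most 0.41. Of 23 probe-sets, 9 rose and 2 fell in saline skin, 11 fell with IMO-3100 and 7 with IMO-8400. The mean of its 15 genes was 13.35 ± 0.037 in naïve, 13.51 ± 0.034 in saline, 13.31 ± 0.059 in IMO-3100 and 13.35 ± 0.054 in IMO-8400 skin. All saline mice were at 13.46 or more and all others at 13.41 or less.

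Atp5l, subunit g of the membrane part, was 12.66, 12.80, 12.84, 12.78 and 12.90 in naïve mice and 13.41, 13.13, 13.17, 13.19 and 13.10 in saline mice. It was 12.97, 12.94, 12.80, 12.89 and 12.89 with IMO-3100 and 12.84, 12.70, 13.03, 13.08 and 12.92 with IMO-8400. Saline mice were above all other mice, by a small margin over IMO-8400 mouse 4. Atp5l rose by 0.41 (SE 0.084, FDR = 0.00086) and changed by −0.30 (FDR = 0.013) with IMO-3100 and −0.29 (FDR = 0.016, or 0.054 without IMO-8400 mouse 2) with IMO-8400.

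Atp5k, subunit e, was at 14.18 to 14.36 in naïve mice and 14.43 to 14.51 in saline mice, with both antagonist groups at 14.12 to 14.36. It rose by 0.18 (FDR = 0.031) and changed by −0.27 (FDR = 0.0048) and −0.20 (FDR = 0.025). The promoters of Atp5l and Atp5k, both with NRF1 letters, are among those shown above. Atp5mpl rose by 0.33 (FDR = 0.0021), and Atp5md and Atp5pb also rose.

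The catalytic subunits did not pass in saline skin. Atp5a1 was at 0.17 (FDR = 0.056) and Atp5b at −0.01 (FDR = 0.94), and with IMO-3100 they fell by 0.27 (FDR = 0.0092) and 0.23 (FDR = 0.024, lost without any of 5 mice). With IMO-8400 they were at −0.11 and −0.13 without passing, and Atp5c1 passed nowhere (0.12, −0.04 and 0.14). The brighter probe-sets of Atp5a1 were untested. At 1420037_at it was 14.44 to 14.60 in naïve, 14.39 to 14.48 in saline and 14.32 to 14.44 in IMO-3100 mice. At 1449710_s_at it was 13.94 to 14.04 in naïve, 13.88 to 13.99 in saline and 13.74 to 13.97 in IMO-3100 mice. Among the genes for subunit c, which forms the rotating ring, Atp5g2 rose by 0.25 (FDR = 0.017) at its brightest probe-set, while a dim probe-set (1456128_at) changed by −0.49 (FDR = 0.048). Atp5g1 at its brightest probe-set was at 0.15 (FDR = 0.14) in saline skin and fell by 0.42 (FDR = 0.0017) with IMO-3100 and 0.31 (FDR = 0.01) with IMO-8400. There all antagonist-treated mice were at 13.50 or less and all saline mice at 13.56 or more. At its other probe-set (1444874_at) every saline mouse was below every naïve mouse, and both antagonist groups overlapped the saline mice. Atp5g3 was bright and untested.

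**Figure D4:**
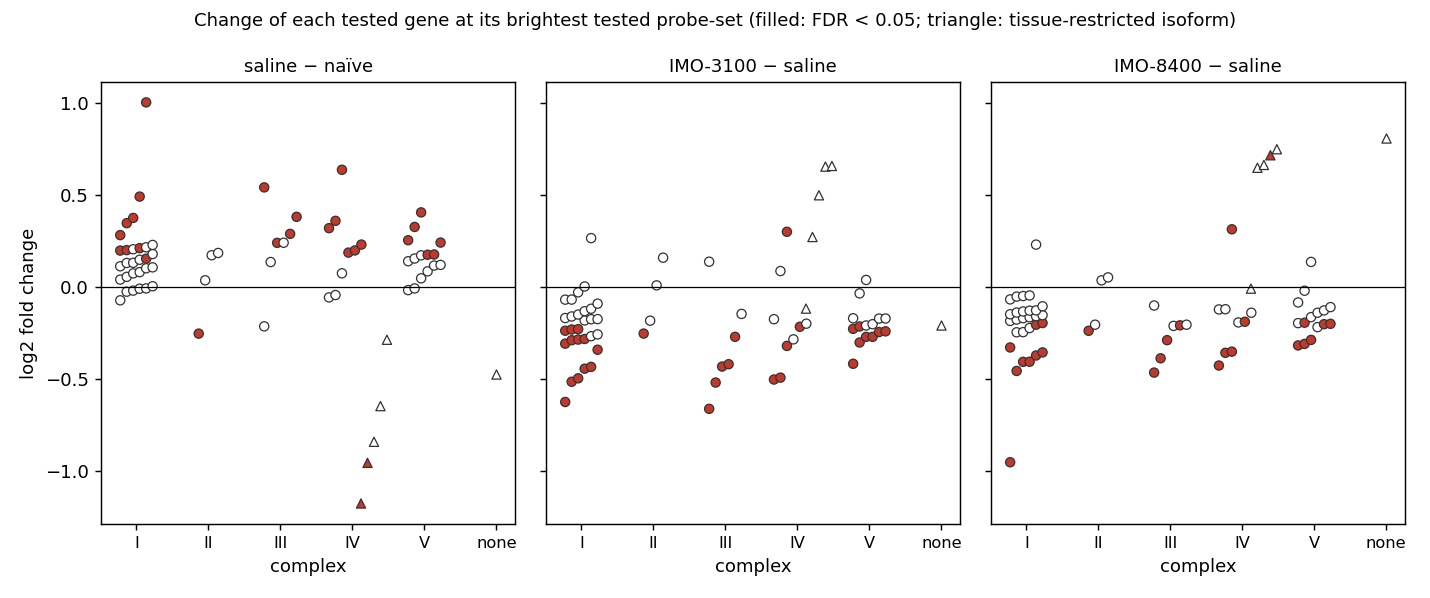
Log2 fold change (y axis) of each tested gene at its brightest tested probe-set by complex (x axis; "none" holds Ndufa4l2), in 3 panels for saline against naïve, IMO-3100 against saline and IMO-8400 against saline. Filled symbols passed an FDR of 0.05 and triangles are restricted isoforms. Circles lie mostly above 0 in the first panel and below 0 in the other 2, while most triangles lie on the other side.

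Counted by gene at the brightest tested probe-set, 25 of 70 genes rose and 3 fell in saline skin, 31 fell and 1 rose with IMO-3100, and 24 fell and 2 rose with IMO-8400. Shares by gene over the whole array were not counted. Of all tested probe-sets, 20.7% rose and 24.0% fell in saline skin, 12.4% and 14.4% with IMO-3100, and 14.7% and 13.2% with IMO-8400. The probe-set counts of each complex can be set beside the same shares. The smaller changes were at the edge of the threshold: after scaling to the 75th percentile or by quantiles, the saline calls of Ndufb2 and Uqcrfs1, the IMO-3100 calls of Ndufs1, Ndufs3, Ndufv2, Sdhc, Uqcrfs1 and Atp5b, and the IMO-8400 calls of Sdhd and Uqcrc2 did not pass under at least 1 of them (FDR = 0.051 to 0.11). In 32 genes with at least 2 tested probe-sets at a mean of 8 or more, the dimmer probe-set had the larger change in 23 genes in saline skin, in 22 with IMO-3100 and in 21 with IMO-8400, and both probe-sets had the same sign in 23, 27 and 31 genes. Of the 132 tested probe-sets, 26 carry the suffix _x_at and 13 the suffix _s_at, which mark probes that can also bind related transcripts.

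The compounds, given at the same dose and days, were compared directly as a single pair. No member was a DEG between IMO-8400 and IMO-3100, against 0.578% of all probe-sets, and 1 of 132 passed the FDR, against 3.76%. This was a probe-set of Cox5a (1415933_a_at), with values of 13.19, 12.96, 13.38, 13.10 and 13.33 with IMO-3100 and 12.72, 12.76, 12.93, 12.95 and 12.75 with IMO-8400, which did not overlap. The difference was −0.37 (95% interval −0.57 to −0.18, FDR = 0.034) and lost its call without any of 7 of these 10 mice (FDR = 0.052 to 0.099). At the brightest tested probe-set of Cox5a it was −0.21 (95% interval −0.35 to −0.065, FDR = 0.090). The count of 1 was 0 without IMO-8400 mouse 1 or 2 or IMO-3100 mouse 1, 4 or 5, and it was 2 without IMO-8400 mouse 4, 3 without naïve mouse 3 or 4, 4 without saline mouse 1, 6 without IMO-3100 mouse 2 and 10 without naïve mouse 1.

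Over the 64 widely expressed genes, the difference between the compounds was between −0.33 and 0.38, and the 95% intervals reached from −0.60 to 0.61. In 53 of 70 genes the interval included 0, with a median of 0.18 to either side of the estimate. Ndufv1 was higher by 0.38 (FDR = 0.054) and Ndufa4l2 by 1.02 (95% interval 0.39 to 1.64, FDR = 0.061) with IMO-8400, neither passing over all mice. Without 1 mouse the difference passed for Ndufv1 (0.43, FDR = 0.0381, without IMO-3100 mouse 2) and Ndufa4l2 (1.24, FDR = 0.0369, without IMO-8400 mouse 5, and FDR = 0.04999 without IMO-3100 mouse 3). Differences of this size therefore could not be told from 0 for most members, which does not show that the compounds act alike.

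Against naïve skin, 7 members were higher and 13 lower with IMO-3100, where 12.4% and 15.3% of all probe-sets were. With IMO-8400, 2 were higher and 8 lower, where 8.91% and 8.83% of all probe-sets were. The dim Ndufa3 probe-set was the farthest above naïve skin with both (1.27 with IMO-3100 and 0.94 with IMO-8400), and Cox7a2l was higher with both (0.26 and 0.27). Ndufb1 (0.38) and Ndufa1 (0.32) were higher with IMO-3100. Ndufv1 (−0.37), Ndufa8 (−0.37), Ndufs7 (−0.32), Uqcrc1 (−0.28) and Atp5b (−0.24) were below naïve skin with IMO-3100, and Uqcrb (−0.32), Ndufb6 (−0.30) and Ndufa12 (−0.27) with IMO-8400. Uqcrb was already at −0.21 in saline against naïve skin, without passing. Cox5a was below naïve skin with IMO-8400 at the dimmer 1415933_a_at (−0.32, FDR = 0.0237) but not past the threshold at its brightest probe-set (−0.18, FDR = 0.0783).

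Genes that assemble the complexes were counted in the same way. Their counts, and those of the lists in the following paragraphs, can be set beside the shares of all probe-sets. Of these, 20.7% rose and 24.0% fell in saline skin, 12.4% and 14.4% with IMO-3100, and 14.7% and 13.2% with IMO-8400. Of 13 tested complex I assembly factors, 6 rose and 1 fell in saline skin (median 0.15), and 8 fell and none rose with each antagonist (medians −0.41 and −0.25). Of 23 assembly factors of complexes II to V, 7 rose and none fell in saline skin, 7 fell and 1 rose with IMO-3100, and 9 fell and none rose with IMO-8400. Of 35 mitochondrial ribosomal proteins, which translate the subunits encoded by mitochondrial DNA, 16 rose and none fell in saline skin (median 0.26). With IMO-3100, 29 of them fell (median −0.44) and with IMO-8400 20 fell (median −0.33), with Mrps22 the farthest and a DEG (−1.01, FDR = 0.00059).

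Among 17 genes of electron carriers and electron entry, 3 rose and 3 fell in saline skin, 10 fell and 1 rose with IMO-3100, and 7 fell and 1 rose with IMO-8400. Gpd2, which feeds electrons from glycerol 3-phosphate to ubiquinone, was a DEG in saline skin (2.62-fold, log2 change 1.39, SE 0.16, FDR = 3.8e-06) and changed by −0.86 and −0.84 with IMO-3100 and IMO-8400. Cytochrome c (Cycs), chosen after its values were seen, rose by 0.38 (FDR = 0.0067) and changed by −0.55 and −0.62, both past the threshold. Of the subunits encoded by mitochondrial DNA only ND5 had a probe-set. It ran opposite to most nuclear subunits in saline skin (−0.31, FDR = 0.01) and with IMO-3100 (0.34, FDR = 0.011). With IMO-8400 it was at 0.01 against saline skin and still below naïve skin (−0.30).

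Pathways that supply the chain with electrons were also counted, and can be set beside the same shares. In saline skin 20.7% of all probe-sets rose and 24.0% fell. With IMO-3100 it was 12.4% and 14.4%, and with IMO-8400 14.7% and 13.2%. None of 12 tricarboxylic acid cycle genes rose in saline skin and 3 fell, and 5 fell with each antagonist. Of 14 fatty acid β-oxidation genes, 1 rose and 5 fell in saline skin, 1 rose and 4 fell with IMO-3100, and 2 rose and 1 fell with IMO-8400. Of 10 genes of pyruvate entry, 2 rose and 3 fell in saline skin, 1 rose and 3 fell with IMO-3100, and 3 rose and 1 fell with IMO-8400. Pdk2 and Pdk4, kinases that switch off pyruvate dehydrogenase, were DEGs downward in saline skin (−1.42 and −1.67) and upward with IMO-8400 (1.32 and 1.29). Of 11 genes of adenine nucleotide exchange, uncoupling and outer membrane channels, 3 rose and 2 fell in saline skin, 2 fell with IMO-3100 and 1, the DEG Ucp3 (1.07), rose with IMO-8400. Ckmt2, the muscle mitochondrial creatine kinase, was a DEG downward in saline skin (−1.37).

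Of 16 glycolysis genes, 8 rose and 2 fell in saline skin, 9 fell with IMO-3100, and 5 fell and 2 rose with IMO-8400. The lactate exporter Slc16a3 (1.64, FDR = 0.00034) and Pfkl (1.06, FDR = 0.00012), a phosphofructokinase, were DEGs upward in saline skin and downward with IMO-3100 (−1.64 and −1.30). With IMO-8400 Slc16a3 was a DEG downward (−1.18) and Pfkm, the muscle phosphofructokinase, a DEG upward (1.11). Of 15 regulators of mitochondrial biogenesis, 1 rose and 3 fell in saline skin, and 1 rose and 3 fell with each antagonist. Neither share in saline skin was above that of all probe-sets (20.7% rose and 24.0% fell). Over all probe-sets it was 12.4% and 14.4% with IMO-3100, and 14.7% and 13.2% with IMO-8400. The coactivator Ppargc1a fell to 0.335 (log2 change −1.58, SE 0.27, FDR = 0.00016) and Esrrg, a nuclear receptor it partners, fell by 1.29 (FDR = 0.0085), whereas the related coactivator Ppargc1b rose 2.31-fold (FDR = 3.8e-05).

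Markers of cell content moved with the groups. The counts here and in the next paragraph can be set beside the shares of all probe-sets. These were 20.7% higher and 24.0% lower in saline skin, 12.4% and 14.4% with IMO-3100, and 14.7% and 13.2% with IMO-8400. All 15 genes of proliferating cells fell with each antagonist and 11 rose in saline skin, and their mean was 11.05, 9.55, 9.63, 9.86 and 9.94 in naïve mice, 10.53 to 10.99 in saline, 9.40 to 9.61 in IMO-3100 and 9.12 to 9.93 in IMO-8400 mice. All 8 genes of hyperplastic epidermis were DEGs upward in saline skin, and 5 fell with IMO-3100 and 4 with IMO-8400 (mean 7.99 to 9.97 in naïve, 14.00 to 14.34 in saline, 10.64 to 13.51 in IMO-3100 and 11.85 to 13.18 in IMO-8400 mice). White adipocyte genes had a mean of 11.52 to 12.05 in naïve, 9.75 to 10.75 in saline, 10.61 to 11.09 in IMO-3100 and 11.08 to 11.46 in IMO-8400 mice. All 5 neutrophil genes, all 7 T cell genes and 5 of 8 macrophage genes rose in saline skin, 1 macrophage gene fell, and 3 neutrophil and 4 T cell genes fell with IMO-3100 and 4 and 3 with IMO-8400.

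All 20 hair genes fell in saline skin, with 1 higher with each antagonist. Of 9 keratinocyte genes, 2 rose and 3 fell in saline skin and 4 rose with each antagonist. Of 8 fibroblast genes, 3 fell in saline skin and 1 rose with IMO-3100. Of 6 brown adipocyte genes, 1 rose and 2 fell in saline skin, 1 rose and 1 fell with IMO-3100 and 1 rose with IMO-8400. The part of these markers in the change of the respiratory chain genes was not tested beyond fits that held the mean of a list constant. In the fit with the proliferating cell list, 29 members rose in saline skin and 4 fell with each antagonist at the FDR, with medians of 0.18, −0.25 and −0.23. With the white adipocyte list, 6 members rose in saline skin and 8 fell with IMO-8400. The medians in that fit were 0.32 in saline skin, −0.26 with IMO-3100 and −0.27 with IMO-8400. The medians kept their signs. The list means themselves differed between the groups, so these fits could not separate a list from the group. No conclusion is drawn from their counts or medians.

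**Figure D5:**
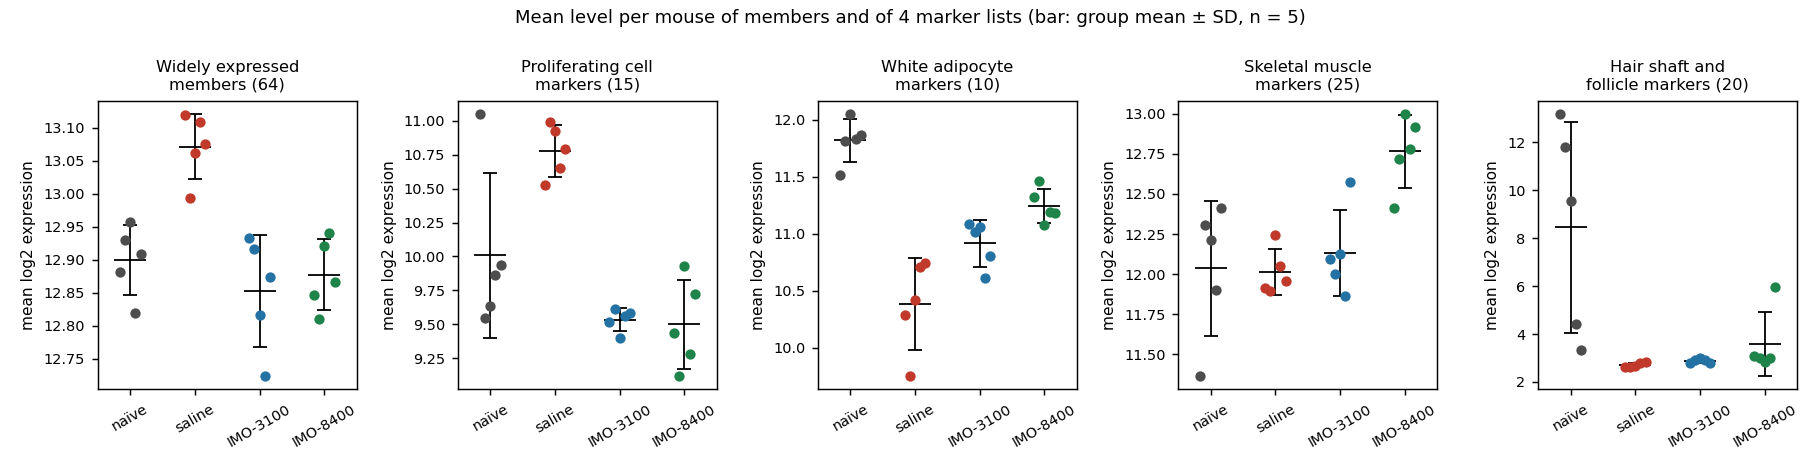
Mean log2 level (y axis) of the 64 widely expressed members and of marker genes of proliferating cells, white adipocytes, skeletal muscle and hair in each mouse (points) of the 4 groups, with group means and SD. Proliferation genes are high in saline mice and naïve mouse 1, adipocyte genes lowest in saline mice, and hair genes highest in naïve mice 1 and 2.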

How the data were processed

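Total RNA from the skin of 20 mice was hybridized to Affymetrix mouse4302 arrays. The deposited values are on the log2 scale, made by the authors with GCRMA (version not given in the sources used here), which corrects background by probe sequence and normalizes between arrays, and the authors checked the arrays with Harshlight and arrayQualityMetrics. Replicates are separate mice, and 5 per group limits the precision. GEO's platform annotation gave a single symbol for 34958 probe-sets, several for 932 and none for 9211.

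Values were fitted with limma 3.58.1 (R 4.3.3), with a mean for each of the 4 groups and 1 spread shared by all, over probe-sets above 2 in at least 3 arrays with an SD over 0.1, as in the methods of the study. P-values were adjusted by Benjamini-Hochberg over all 30960 tested probe-sets. The fit was tested on simulated data. Promoters were searched in Python 3.11.15 (pandas 2.3.3, numpy 2.4.6), and figures drawn with matplotlib 3.10.9.

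A gene was described at its tested probe-set with the highest mean, with others where they disagreed. Genes named were the up to 10 largest rises and falls at the FDR in each comparison, all isoform groups, core subunits, and up to 4 DEGs per pathway list. The members and all lists were chosen with earlier results of these data known. Alternatives were the filter, a floor of 4, scaling to the 75th percentile or by quantiles, fits of the compared groups only, a trended and robust prior, the FDR alone, marker lists as covariates, 1 probe-set per gene, and leaving out mice. The fits with hair and proliferation lists and without naïve mice 1 and 2 were added after the data were seen.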

Additional observations from a re-analysis of the deposited data

Results flagged for a closer look

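In 108 sets of 5 values (the 4 groups of each member described by mouse, and 2 means over members), the highest or lowest mouse was tested for a gap to its neighbour that is large against the range of its group, and 6 sets held such a mouse. Chance gives such a gap in about 1 in 20 groups, close to the share found. Cox7a1 in IMO-8400 mouse 4 was at 10.50 and in the other IMO-8400 mice at 9.47 to 9.75. The mean of the muscle forms Cox6a2, Cox7a1 and Cox8b in the same mouse was 11.77, against 10.92 to 11.09 in the others. Uqcr10 in naïve mouse 4 was at 12.43, against 12.60 to 12.65, and Ndufs4 in saline mouse 1 at 13.35, against 12.81 to 12.96. Ndufa4 in naïve mouse 1 was at 13.19, against 13.52 to 13.61, and Sdhd at 1428235_at in saline mouse 5 at 12.41, against 12.54 to 12.58.

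The effects of the compounds differed for Cox5a at 1415933_a_at, where IMO-8400 gave a change against saline lower by 0.37 on the log2 scale than IMO-3100 (limma, difference −0.37, FDR = 0.034).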

How the results depend on the processing

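With DEGs as the call there were 2 members higher and 1 lower in saline than in naïve skin and 0 in each comparison of an antagonist with saline and between the antagonists. With the FDR alone the counts were 54 and 7 in saline skin, 3 higher and 58 lower with IMO-3100, 3 higher and 52 lower with IMO-8400 and 1 between the antagonists. Leaving out single mice gave 1 to 2 and 1 to 3 DEGs in saline against naïve skin, 0 to 0 in both directions with IMO-3100, 0 to 1 higher and 0 to 2 lower with IMO-8400 and 0 to 1 between the antagonists. At the FDR it gave 43 to 58 higher and 3 to 8 lower in saline skin, 1 to 6 higher and 44 to 70 lower with IMO-3100, 1 to 8 higher and 38 to 62 lower with IMO-8400, and 0 to 10 between the antagonists. The 1 member that differed between the antagonists at the FDR became 4 without a filter, 3 with a stricter filter, 2 with values under 4 set to 4, 4 with quantile normalization, 5 with only the groups compared and 7 with a trended and robust prior.

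DEGs higher in saline skin were 1 with the floor of 4, with the 75th percentile and with 1 probe-set per gene. Members higher with IMO-8400 at the FDR were 5 with the 75th percentile, 6 with only the groups compared and 5 with the trended prior, and quantile normalization gave 2 DEGs lower with IMO-8400. With only the groups compared, 2 members fell in saline skin and 5 rose with IMO-3100. With 1 probe-set per gene, which leaves fewer probe-sets to count, 28 rose and 4 fell in saline skin, 1 rose and 35 fell with IMO-3100 and 27 fell with IMO-8400.

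Marker means as covariates differ between the groups, which by construction leaves less to estimate each change. The muscle list gave 1 DEG lower, 0 higher and 24 lower at the FDR with IMO-8400. The adipocyte list gave 1 and 0 DEGs and 6 higher and 0 lower at the FDR in saline skin, 0 higher with IMO-3100, 1 DEG lower, 0 higher and 8 lower with IMO-8400, and 0 between the antagonists, and the members' median in saline skin moved from 0.17 to 0.32 and with IMO-8400 from −0.20 to −0.27. The hair list gave 1 and 4 DEGs and 32 higher in saline skin, 1 DEG lower with IMO-8400 and 2 between the antagonists. The proliferating cell list gave 1 DEG higher and 29 higher at the FDR in saline skin, 0 higher and 4 lower with IMO-3100, 1 DEG higher and 4 lower at the FDR with IMO-8400 and 4 between the antagonists. Without naïve mice 1 and 2, saline skin had 1 and 3 DEGs, 7 members rose with IMO-3100 and 7 with IMO-8400, and 9 differed between the antagonists. Other causes of these moves were not tested.

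Changes of direction were found for Cox7a1 (0.95) and Sdha at 1426689_s_at (0.13) in saline against naïve skin with the adipocyte list, and for Ndufa3 at 1430149_at (0.26) with IMO-8400 and the proliferating cell list, none past the threshold there. Over single genes, 3687 values kept direction and side of the threshold, 98 came to pass it, 248 no longer passed it and 3 changed sign. No paired analysis was possible because the labels give no replicate numbers that link mice of different groups. Probe-sets near the top of the scale or at its lowest value can hide changes.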
